A study of Homo sapiens with 4 samples.

Results

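The genes described here are 33 genes of sterol and fatty acid synthesis, taken from a list of gene symbols out of the 57820 genes in the deposited table. The list names the enzymes from acetyl-CoA to cholesterol, the proteins that control the sterol-sensing transcription factors, and the main enzymes that build, elongate and desaturate fatty acids. The rule uses symbols alone, but the list was drawn up with earlier results of these data known, so its counts below are a description. All 33 genes passed the filter on low counts. In SK-N-SH, a human neuroblastoma cell line, they were measured by RNA sequencing after overexpression of the long noncoding RNA *RP5-998N21.4*. The comparison asks which genes respond to that RNA.

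The OE group was transduced with a recombinant lentivirus that carries *RP5-998N21.4* under the EF1a promoter, and the vector control group with the same kind of lentivirus without an insert. The control libraries are titled WT and their genotype is given as wild type, while their treatment is given as the empty vector, so both groups carried a lentivirus. There were 2 libraries per group, each from SK-N-SH cells. Nothing in the labels says that the libraries of a group came from separate cultures, so the p-values measure only the spread between these libraries, which may be technical.

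Cells make cholesterol by condensing acetyl-CoA units to mevalonate, turning mevalonate into isoprenoid units, joining these to squalene, and closing and trimming the ring. Fatty acids are made from the same acetyl-CoA pool. Most of these genes are activated by the sterol regulatory element-binding proteins (SREBPs), which SCAP escorts out of the endoplasmic reticulum when membrane sterol is low and INSIG proteins hold there when it is high. The nervous system makes its own cholesterol, since lipoprotein cholesterol hardly crosses the blood-brain barrier.

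The libraries held 23785164 and 24098041 counts in the vector control group and 24601728 and 28307591 in the OE group, with between 6.01% and 6.5% of them on mitochondrially encoded genes. *RP5-998N21.4* had 1.39 ± 0.0213 CPM (SD, n = 2; CPM are counts in a library scaled to 1000000 after normalisation) in the vector control libraries and 96.5 ± 0.816 CPM in the OE libraries, so the libraries carried the RNA that their labels state. Of 7 adrenergic neuroblastoma markers, 6 could be tested. All 6 were higher in both OE libraries than in both vector control libraries, beside 27.8% of all genes. Their summed level was 360 to 430 CPM in vector control and 640 to 673 CPM in OE, and *TH*, tyrosine hydroxylase, had 0 counts in every library. Of 4 mesenchymal markers, *PRRX1* and *YAP1* were lower in OE at an unadjusted p under 0.05, beside 10.7% of all genes. Their log2 fold changes were −0.64 and −0.27. *FN1* was at −0.04, and *VIM* stood at 1254 CPM in OE replicate 1 against 348 to 376 CPM elsewhere. The summed level of the 4 mesenchymal markers was 1418 to 1440 CPM in vector control and 1204 to 2174 CPM in OE. Of the 6 adrenergic markers, 4 were higher at an unadjusted p under 0.05, beside 10.1% of all genes. The part of these markers of cell state in the results on the lipid genes was not tested. Blood, liver, pancreas and T cell markers (*HBB*, *ALB*, *INS* and *CD3E*) had 0 counts in all 4 libraries, and the 8 markers of other tissues summed to 0.717 to 2.04 CPM.

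More of the 33 genes stood lower than higher in the OE libraries. The median log2 fold change was −0.58 over the enzymes from squalene to cholesterol and −0.02 over the fatty acid enzymes. The first of these medians was −0.38 without OE replicate 2, and 6 of its 11 genes, against 1 of the 6 fatty acid genes, had counts whose leading transcript differed between libraries. Lanosterol synthase (*LSS*) was 11.8-fold lower by its mean CPM, and squalene synthase (*FDFT1*) and 7-dehydrocholesterol reductase (*DHCR7*) were 51.8% and 49.8% lower. These are sums over transcripts, and the difference of *FDFT1* was not seen in its highest transcript alone (log2 fold change −0.03). None of the 33 genes passed the call rule, which was an adjusted p under 0.01 in edgeR's quasi-likelihood test together with an absolute log2 fold change above 0.5. That rule called 0% of the 20528 genes tested in either direction, although 2200 were lower and 2069 higher at an unadjusted p under 0.05 and DESeq2 called 1800. An adjusted p under 0.05 with no limit on the fold was reached by 0.594% of all genes and by 0 of the 33 genes. At an unadjusted p under 0.05, 13 of the 33 (39.4%) were lower in OE, beside 10.7% of all genes, and 0 were higher, beside 10.1% of all genes. DESeq2, the tool named by the study, called 7 of the 33 lower (21.2%, beside 4.42% of all genes) and 0 higher (beside 4.35%). Because RNA was measured in bulk, fewer cells that express a gene and less of its RNA per cell cannot be told apart.

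The same lean was seen without a model. In 19 of the 33 genes (57.6%) both OE libraries lay below both vector control libraries, beside 27.6% of all genes. In 4 genes (12.1%), *ACACA*, *ELOVL6*, *FDPS* and *SCD*, both OE libraries lay above, beside 27.8% of all genes. For a single gene, an exact two-sided permutation test over 2 against 2 libraries cannot go below p = 0.33. The median log2 fold change of the 33 genes was −0.38, with 25 below 0 and 8 above, beside a median of 0.01 over all genes tested. Without OE replicate 2, the number of genes lower at an unadjusted p under 0.05 went from 13 to 7 and the median was still between −0.43 and −0.34, the range over leaving out each library. The plot of the members in each library shows the lean gene by gene.

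**Figure D1:**
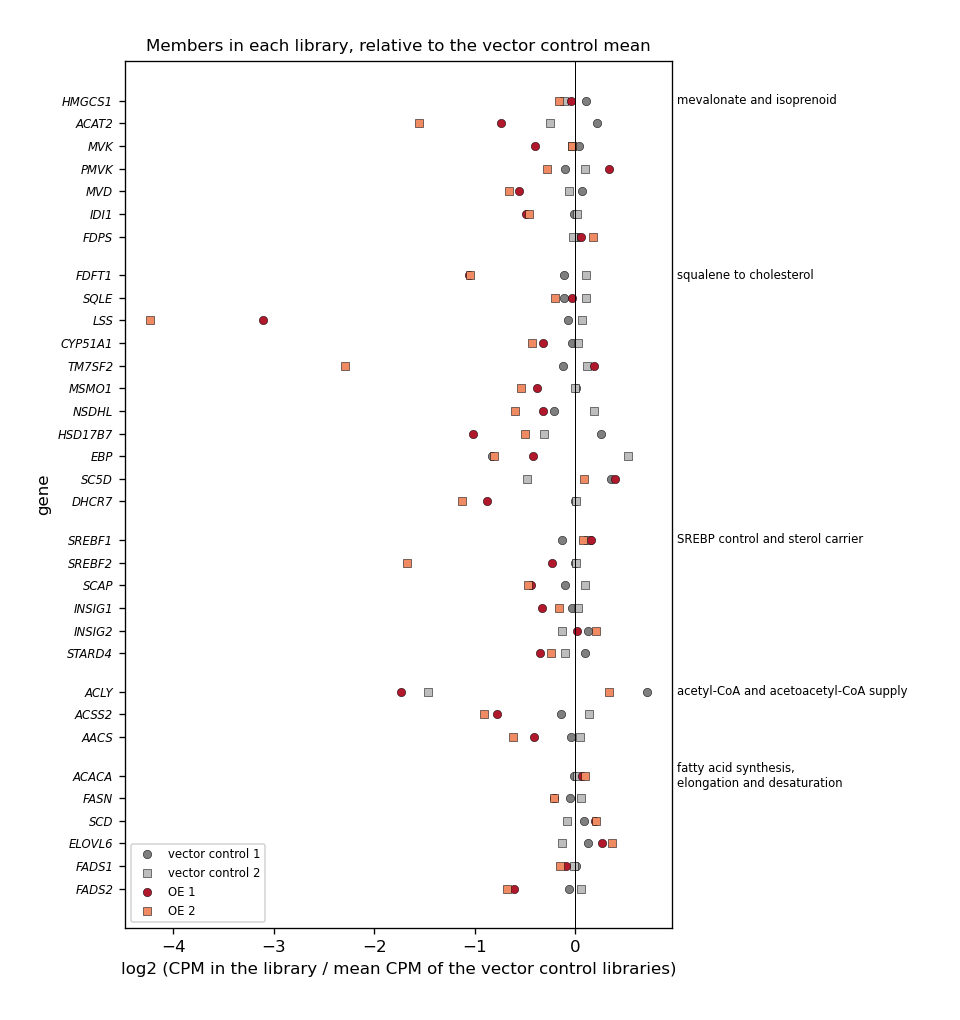
Each of the 33 genes is a line, and the x axis gives log2 of its CPM in a library over its mean CPM in the vector control libraries (grey circles and squares for vector control, red and orange for OE). In *FDFT1*, *LSS*, *DHCR7*, *IDI1*, *MVD* and *FADS2* both OE points lie well to the left of both grey points, while in *ACLY* the replicates of each group lie apart.

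The levels of the genes differed widely. Mean CPM over the 4 libraries ran from 3.81 for *ACAT2* to 222 for *FASN*. Per kilobase of the transcript with the highest mean count, a scale on which genes can be compared, the highest levels of the 31 genes with a known length in the vector control libraries belonged to the desaturases *FADS2* (51.9 ± 3.13 CPM per kb, SD, n = 2) and *FADS1* (43.5 ± 0.417), followed by *SCD* (32.6 ± 2.70), which makes oleate, and *PMVK* (31.6 ± 3.06). Where the counts of each transcript were divided by its own length instead, a choice made after seeing the data, *FADS2* stood at 43.1 and 56.7 CPM per kb and *FADS1* at 46.3 and 44.6, so their order is not settled. On that scale *MSMO1* had 40.7 and 26.5 CPM per kb and overlapped *SCD* and *PMVK*, so the order after *FADS1* is not settled either. *FADS1* lay above *SCD* in both libraries on either scale. *LSS* stood at 20.9 CPM per kb in vector control on either scale, and in OE at 1.77 ± 0.933 by the single length and at 2.54 ± 2.02 by the own lengths.

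Among the 7 genes of the mevalonate and isoprenoid segment, 3 (42.9%) were lower in OE at an unadjusted p under 0.05, beside 10.7% of all genes, and the median log2 fold change was −0.21, or −0.41 without OE replicate 2. *IDI1*, isopentenyl-diphosphate isomerase, which interconverts the isoprenoid units, had 55.9 and 56.8 CPM in vector control and 40.0 and 41.0 CPM in OE. The replicates were nearly equal and the groups well apart, at a log2 fold change of −0.48 (SE 0.0856, edgeR adjusted p = 0.109). *MVD*, mevalonate diphosphate decarboxylase, which makes isopentenyl diphosphate, had 14.5 and 13.3 CPM in vector control and 9.41 and 8.78 CPM in OE. Its difference was −0.61 (SE 0.132, adjusted p = 0.132), again without overlap, but none of its counts lay on a transcript annotated as protein coding, and its leading transcript is a retained intron in every library. *ACAT2*, the cytosolic thiolase that opens the pathway, had the lowest counts of the set and went from 6.01 and 4.34 CPM to 3.11 and 1.76 CPM (log2 fold change −1.09, SE 0.379, adjusted p = 0.238).

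The other mevalonate enzymes did not share this difference. *HMGCS1*, which makes HMG-CoA, had 30.2 and 25.9 CPM in vector control and 27.2 and 25.0 CPM in OE, so the groups overlapped (log2 fold change −0.10, SE 0.131, adjusted p = 0.710). The kinases *MVK* and *PMVK* also overlapped between groups, at −0.21 and 0.06. *FDPS*, farnesyl diphosphate synthase, was at 0.11, but its counts lay entirely on 3 transcripts annotated as retained introns. A retained intron led in every library for 4 of the 33 genes, *FDPS*, *MVD*, *MVK* and *SREBF1*. The processed pseudogene *FDPSP1* held 560 and 544 counts in vector control and 342 and 374 in OE, against 336 and 329 and then 370 and 464 for *FDPS*. Reads from a gene and its near-identical copy can be placed on either, so the level of *FDPS* is uncertain.

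From squalene to cholesterol, 5 of 11 genes (45.5%) were lower at an unadjusted p under 0.05, beside 10.7% of all genes, and the median was −0.58, which is the value of *TM7SF2*, a gene whose OE libraries lay far apart. *FDFT1*, squalene synthase, commits isoprenoids to sterols and lies on chromosome 8 at 11653082 to 11696904 (GRCh37, plus strand). It had 44.0 and 51.2 CPM in vector control and 22.8 and 23.1 CPM in OE. The log2 fold change was −1.05 (SE 0.120, adjusted p = 0.0707), the smallest p of the 33 genes. The difference rests on the sum over transcripts, since it was −0.03 with only the transcript of highest mean count. *SQLE*, squalene epoxidase, follows directly and is the oxygen-dependent, rate-controlling step after squalene. Its levels overlapped, at 39.5 and 46.0 CPM in vector control and 41.6 and 37.2 CPM in OE (−0.12, SE 0.131, adjusted p = 0.670).

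*LSS*, lanosterol synthase, closes the sterol ring and showed the largest fold change of the 33 genes. It lies on chromosome 21 at 47608055 to 47648738 (GRCh37, minus strand). It had 97.1 and 107 CPM in vector control and 11.9 and 5.43 CPM in OE. Every OE value lay far below every vector control value, at a log2 fold change of −3.56 (SE 0.459, adjusted p = 0.0779), and the value without each library in turn ran from −4.23 to −3.10. *CYP51A1*, lanosterol demethylase, takes the product of *LSS* and had 56.9 and 59.3 CPM in vector control and 46.5 and 42.9 CPM in OE (−0.38, SE 0.0966, adjusted p = 0.164). *MSMO1*, the C-4 methyl oxidase, had 59.7 and 59.0 CPM and then 45.6 and 40.7 CPM (−0.46, SE 0.103, adjusted p = 0.141). Both of these differences were smaller than that of *LSS*, and in both the groups did not overlap.

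*DHCR7* carries out the last reduction to cholesterol. It lies on chromosome 11 at 71139239 to 71163914 (GRCh37, minus strand). It had 52.8 and 53.4 CPM in vector control and 28.9 and 24.4 CPM in OE, a log2 fold change of −0.99 (SE 0.125, adjusted p = 0.0768). Among the steps between, *NSDHL* and *HSD17B7*, which complete the removal of the C-4 methyl groups, were at −0.46 and −0.73 with no overlap between groups and an unadjusted p above 0.05. *HSD17B7* has the pseudogenes *HSD17B7P1* and *HSD17B7P2*, which held 31 to 57 counts in each library against 108 to 242 for the gene. *EBP*, *SC5D* and *TM7SF2* overlapped, and their single libraries stood apart. *EBP* had 8.16 and 20.9 CPM in vector control, *SC5D* had 37.9 and 21.2 CPM in vector control, and *TM7SF2* had 21.0 and 3.77 CPM in OE.

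Of the 6 genes that control SREBP processing or carry sterol, 1 (16.7%) was lower at an unadjusted p under 0.05, which with 6 genes is near the 10.7% of all genes, and the median was −0.27. *SCAP*, the sterol-sensing escort of the SREBPs, had 70.2 and 81.1 CPM in vector control and 55.8 and 54.7 CPM in OE (log2 fold change −0.45, SE 0.111, adjusted p = 0.155). *SREBF2*, which encodes the SREBP that mainly drives sterol genes, had 67.0 and 67.3 CPM in vector control and 57.0 and 21.1 CPM in OE. Its OE libraries were both lower but lay 2.71-fold apart, so the log2 fold change of −0.78 had an SE of 0.524 (adjusted p = 0.470). Without OE replicate 1 it was −1.67, and without OE replicate 2 it was −0.24.

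*SREBF1*, whose product mainly drives fatty acid genes, overlapped between groups. It had 31.7 and 37.9 CPM in vector control and 38.8 and 36.8 CPM in OE (0.12, SE 0.131, adjusted p = 0.665). The sign changed without vector control replicate 1 (−0.011) and with only the transcript of highest mean count (−0.33). *INSIG1*, which is itself a sensitive SREBP target, had 19.4 and 20.3 CPM in vector control and 15.7 and 17.8 CPM in OE (−0.24, SE 0.125, adjusted p = 0.364). Its groups did not overlap, but the gap between them was smaller than the gap between the OE libraries. *INSIG2* was at 0.11 with overlap. *STARD4*, a soluble carrier that moves sterol between membranes, had 89.8 and 78.4 CPM and then 65.9 and 70.9 CPM (−0.30), also without overlap.

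Of the 3 genes of acetyl-CoA and acetoacetyl-CoA supply, 2 (66.7%) were lower at an unadjusted p under 0.05, beside 10.7% of all genes. *ACSS2* makes acetyl-CoA from acetate and had 20.7 and 25.0 CPM in vector control and 13.3 and 12.2 CPM in OE (log2 fold change −0.84, SE 0.153, adjusted p = 0.110). *AACS* activates acetoacetate for lipid synthesis and had 29.8 and 31.7 CPM and then 23.1 and 19.9 CPM (−0.52, SE 0.126, adjusted p = 0.153). Both were without overlap. *ACLY*, ATP citrate lyase, could not be assessed, since it had 144 and 31.7 CPM in vector control and 26.5 and 111 CPM in OE. Its replicates were 4.54-fold apart in vector control and 4.18-fold apart in OE, and its log2 fold change ran from −1.73 to 1.10 as each library was left out.

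Over the 6 fatty acid genes the median was −0.02, with 2 (33.3%) lower at an unadjusted p under 0.05, beside 10.7% of all genes. *FADS2*, the delta-6 desaturase that starts the conversion of essential fatty acids, had 154 and 167 CPM in vector control and 105 and 100 CPM in OE (−0.64, SE 0.0850, adjusted p = 0.0791). With only the transcript of highest mean count it was at 0.30, the opposite sign. *FASN*, fatty acid synthase, had 229 and 246 CPM and then 206 and 205 CPM (−0.21, SE 0.0692, adjusted p = 0.223). The groups were apart in both, by a much smaller share in *FASN*. *SCD*, stearoyl-CoA desaturase, had 181 and 161 CPM in vector control and 196 and 197 CPM in OE (0.20, SE 0.0867, adjusted p = 0.305). *ELOVL6*, which elongates palmitate, was at 0.32, *ACACA*, acetyl-CoA carboxylase, at 0.08, and *FADS1*, the delta-5 desaturase, at −0.12. *FADS1* and *FADS2* overlap on chromosome 11 on opposite strands and share exonic bases, and the sources used here do not say whether strand was used in counting. In the annotation used, 16 of the 32 genes with a position share exonic bases with a gene on the opposite strand, and the same limit applies to each. They include 7 of the 13 lower genes, *ACAT2*, *CYP51A1*, *FADS2*, *FDFT1*, *IDI1*, *LSS* and *SCAP*.

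**Figure D2:**
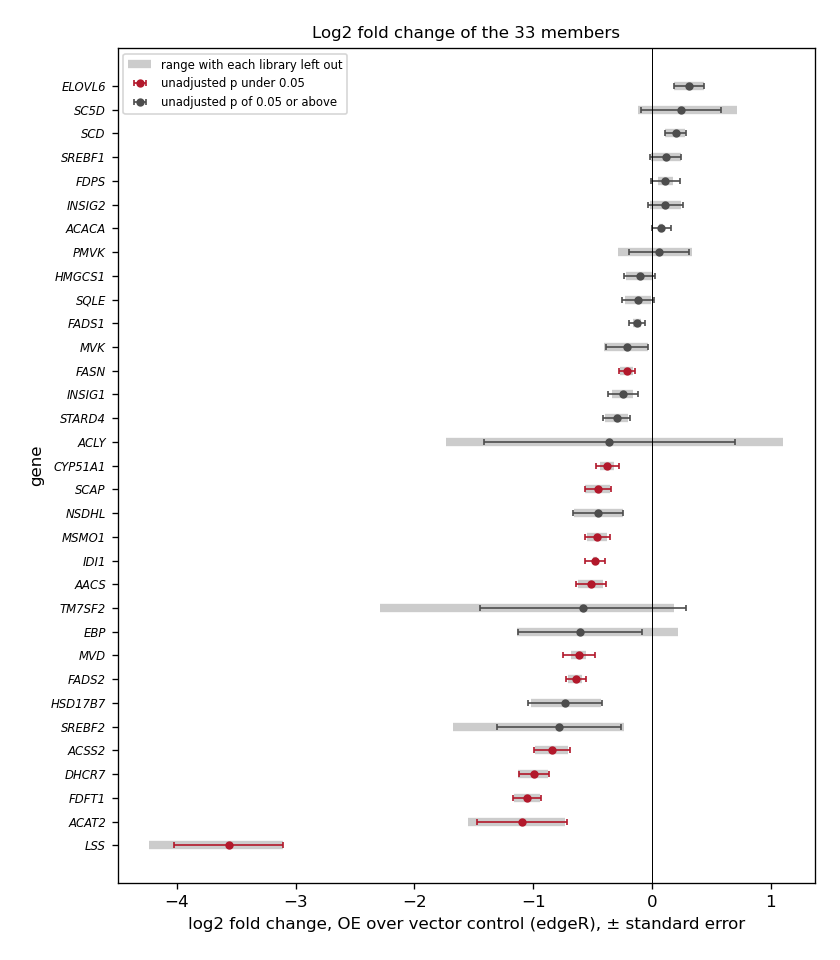
Points give the log2 fold change of OE over vector control from edgeR for the 33 genes, bars the standard error, and grey bands the range when each of the 4 libraries was left out. Red points mark the 13 genes with an unadjusted p under 0.05, all left of 0, from *FASN* at −0.21 to *LSS* at −3.56, and the wide grey bands of *ACLY*, *TM7SF2*, *SREBF2* and *EBP* mark genes that rest on single libraries.

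The deposited table gives counts for each transcript, and the 4 genes with the smallest p were among those whose counts moved between transcripts. A gene's leading transcript, the one with the highest count, was the same in all 4 libraries for 23 of the 31 genes that have at least 2 transcripts and enough counts (74.2%), beside 76.4% of 13848 such genes in the table. The 8 others were *ACAT2*, *DHCR7*, *FADS2*, *FDFT1*, *LSS*, *NSDHL*, *SC5D* and *TM7SF2*. In *LSS*, ENST00000397728.3 held all counts of the vector control libraries (2260 and 2515). It held 0 in OE replicate 1, where all 298 counts lay on ENST00000356396.4, and all 157 in OE replicate 2. These transcripts share 2642 exonic bases, 54.1% of the first and 88.2% of the second. In *DHCR7*, ENST00000407721.2 held 1225 and 1250 counts in vector control and 0 in OE, while ENST00000355527.3 held 0 in vector control and 726 and 612 in OE. A further transcript, ENST00000525137.1, held 93 counts in OE replicate 2. The whole of ENST00000407721.2, 2601 bases, is contained in ENST00000355527.3, which has 2627.

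In *FDFT1* and *FADS2* the leading transcript differed between the vector control libraries. In *FDFT1*, ENST00000528812.1 held 868 and 141 counts in vector control and 573 and 568 in OE, and ENST00000220584.4 held 962 counts in vector control replicate 2 and none elsewhere. In *FADS2*, ENST00000278840.4 held 1079 and 2535 counts in vector control and 2467 and 2661 in OE, and the retained-intron transcript ENST00000523235.1 held 1793 counts in vector control replicate 1 and 0 elsewhere. The protein-coding ENST00000257261.6 held 558 and 1330 counts in vector control and 48 and 97 in OE, so it was lower in both OE libraries. The part of this placement in the gene-level differences was not tested.

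The 25 genes with 1 steady leading transcript, or with a single transcript, give the comparison without a change of leading transcript. Counts still moved within some of them. The leading transcript of *SREBF1* held 83.3% and 76.0% of its counts in vector control and 56.7% and 60.1% in OE. Of the 25 genes, 8 (32.0%) were lower in OE at an unadjusted p under 0.05 and 0 were higher, beside 11.3% of all such genes lower. They were *AACS*, *ACSS2*, *CYP51A1*, *FASN*, *IDI1*, *MSMO1*, *MVD* and *SCAP*. *IDI1* and *CYP51A1* had all their counts on 1 transcript in every library. The median log2 fold change was −0.24 over the 25 genes and −0.82 over the 8 whose leading transcript differed. Of the 33 genes, 5 had replicates more than 2-fold apart (*ACLY*, *EBP*, *TM7SF2*, *SREBF2* and *LSS*), beside 11.8% of 14023 genes that averaged 4 CPM or more, and the median without them was −0.27.

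**Figure D3:**
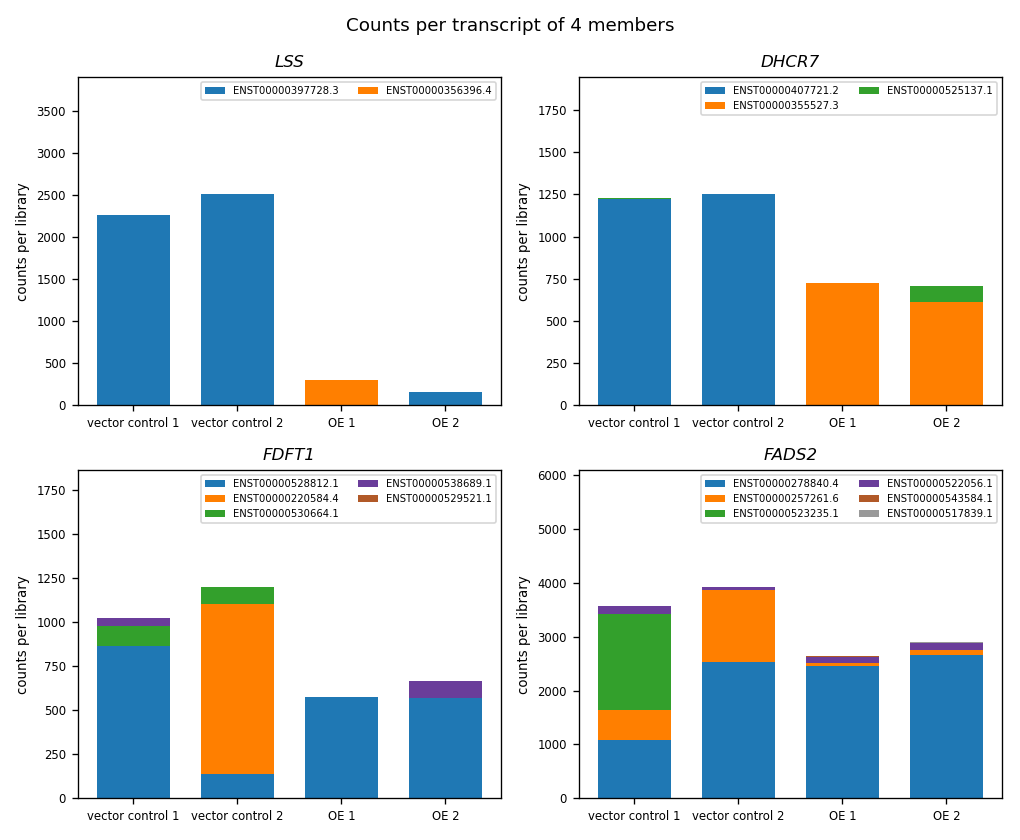
Stacked bars give the counts of each transcript (colours) of *LSS*, *DHCR7*, *FDFT1* and *FADS2* in the 4 libraries, with counts per library on the y axis. The bar heights of the OE libraries are lower in all 4 genes, while the colours differ between groups in *DHCR7*, between the OE libraries in *LSS*, and between the vector control libraries in *FDFT1* and *FADS2*.

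SREBPs act at sterol regulatory elements together with the factors NF-Y, which binds CCAAT, and SP1, which binds GC boxes. The RefSeq promoters (GRCh38.p14, 250 bases before each start) held an entry for 29 of the 33 genes, all but *ACAT2*, *FASN*, *FDFT1* and *SQLE*. The element TCACNCCAC, searched on both strands, lay in 1 of the 29 (3.45%), beside 0.883% of all 35116 promoters. Elements that differ from this string were not searched. CCAAT lay in 18 of 29 (62.1%), beside 32.0%, and GGGCGG in 27 of 29 (93.1%), beside 42.6%. None of these 3 strings contains another. The 1 gene was *SREBF2*, and its element is shown in capitals because the gene encodes the sterol-driven factor itself. It lies 133 to 125 bases before the start, in chr22:41832946-41833005 (plus strand):
SREBF2: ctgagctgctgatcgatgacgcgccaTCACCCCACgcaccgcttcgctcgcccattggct

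Of the 13 genes lower at an unadjusted p under 0.05, 10 had a promoter entry and 5 of these (50.0%) held CCAAT, beside 13 of the 19 other members (68.4%), so the motif was not more frequent in the lower genes. The 5 are shown 5′ to 3′ on the strand of the gene, with CCAAT or its reverse complement ATTGG in capitals, as examples of the motif's place. The windows lie at chr20:34874838-34874897 for *ACSS2*, chr11:71448410-71448469 for *DHCR7*, chr21:46228893-46228952 for *LSS*, chr4:165327607-165327666 for *MSMO1* and chr16:88663145-88663204 for *MVD* (*ACSS2* and *MSMO1* plus strand, the others minus strand). The match shown starts 34 bases before the transcription start in *MSMO1*, 48 in *DHCR7*, 85 in *MVD*, 123 in *ACSS2* and 150 in *LSS*. It is 1 of 4 matches in the promoter of *MSMO1*, 1 of 3 in that of *MVD* and 1 of 2 in that of *DHCR7*. A match describes these letters only, and binding was not measured.
ACSS2: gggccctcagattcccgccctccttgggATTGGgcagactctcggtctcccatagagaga
DHCR7: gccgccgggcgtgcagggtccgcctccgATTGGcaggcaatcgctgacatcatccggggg
LSS: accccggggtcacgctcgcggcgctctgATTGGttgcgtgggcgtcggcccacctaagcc
MSMO1: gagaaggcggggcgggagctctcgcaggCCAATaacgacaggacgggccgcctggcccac
MVD: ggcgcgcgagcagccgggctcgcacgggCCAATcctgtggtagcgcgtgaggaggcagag

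Outside the set, a list of 23 genes of sterol transport, storage and control had 22 tested. At an unadjusted p under 0.05, 4 (18.2%) were higher, beside 10.1% of all genes, and 3 (13.6%) lower, beside 10.7%. The median log2 fold change was −0.13, with 14 below 0 and 8 above. *ABCA1*, which exports cholesterol to apolipoproteins, had 17.4 and 18.6 CPM in vector control and 32.4 and 36.2 CPM in OE (0.93, adjusted p = 0.0768). *ABCG1*, its partner in export, had 1.33 and 1.36 CPM and then 3.99 and 4.25 CPM (1.61, adjusted p = 0.0713). *MYLIP*, a ubiquitin ligase for lipoprotein receptors, was at 1.80 (SE 0.230, adjusted p = 0.0779) and the receptor *VLDLR* at 0.87 (SE 0.142, adjusted p = 0.0975). DESeq2 called these 4 higher (18.2% of the list, beside 4.35% of all genes). Without overlap, 6 of the 22 genes were higher in OE (27.3%, beside 27.8% of all genes) and 9 lower (40.9%, beside 27.6%). The 3 lower genes were *MBTPS1*, the protease that makes the first cut in SREBPs, at −0.48, *TMEM97* at −0.53 and *C14orf1*, a sterol enzyme scaffold also known as ERG28, at −0.34.

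The remaining lists are read beside the 10.7% of all genes that were lower and the 10.1% that were higher at an unadjusted p under 0.05. Of 14 genes that draw isoprenoids into other products, 2 (14.3%) were lower and 1 (7.14%) higher at an unadjusted p under 0.05, and the median was −0.06. *ICMT*, which methylates prenylated proteins, had 253 and 272 CPM in vector control and 171 and 179 CPM in OE (−0.58, adjusted p = 0.0769). *COQ2*, of ubiquinone synthesis, was at −0.72. Of 25 tested genes for other fatty acid enzymes, 3 (12.0%) were lower, 0 higher, and the median was −0.08. They were *SCD5*, a desaturase of brain, with 61.6 and 58.5 CPM and then 29.9 and 32.5 CPM (−0.95, SE 0.0995, adjusted p = 0.0659), the citrate carrier *SLC25A1* at −0.39 and the acyl-CoA synthetase *ACSL4* at −0.27. DESeq2 called 2 of the isoprenoid list (14.3%) and 1 of the fatty acid list (4.0%), all lower, beside 4.42% of all genes.

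**Figure D4:**
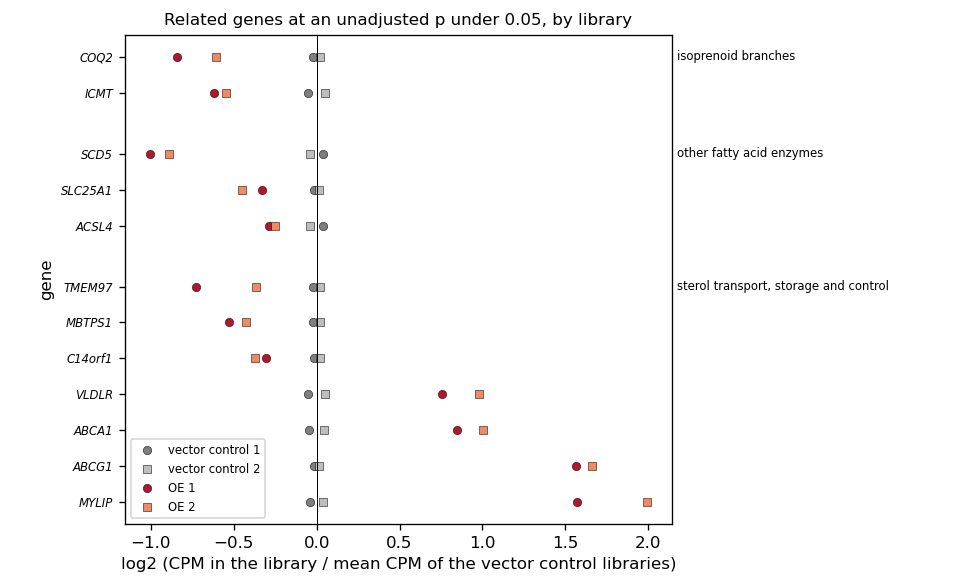
Each line is a related gene named in the text, with an unadjusted p under 0.05, and the x axis gives log2 of its CPM in a library over its mean CPM in the vector control libraries. *MYLIP*, *ABCG1*, *ABCA1* and *VLDLR* have both OE points right of 0, and the other 8 have both to the left.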

How the data were processed

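RNA libraries (TruSeq) of 2 vector control and 2 OE samples of SK-N-SH cells were sequenced as paired ends. Per the study's methods, the authors checked reads with FastQC, trimmed them with Trimmomatic, mapped them to hg19 with Bowtie2 and tested with DESeq2, and the submitters' processing notes name Bowtie2 2.0.4, Picard 2.21.6 and StringTie 2.1.6. The authors deposited whole-number counts per transcript. The sources used here do not say which tool made the counts, and they give no annotation release or strand setting. Counts were summed per gene identifier, filtered with filterByExpr, scaled by TMM (factors 0.976 to 1.02) and tested with edgeR 4.0.16 (R 4.3.3, quasi-likelihood, Benjamini-Hochberg over 20528 genes). CPM values are TMM-scaled. DESeq2 1.42.0 was an alternative. The scripts were checked on simulated data with 200 changed genes. Other alternatives were the library scaling, limma-voom, the filter, the highest transcript only, the replicate block, removal of mitochondrial genes and removal of each library. The members and lists were chosen with earlier results of these data known. Full statistics are given for the 10 members of smallest p and for *SREBF1*, *SREBF2*, *SCAP*, *INSIG1*, *HMGCS1*, *SQLE*, *FASN* and *SCD*, and also for *CYP51A1* and *ACAT2*, chosen after their values were seen, and related genes are named at an unadjusted p under 0.05, except 1 that is not reported here. Transcript lengths and GRCh37 positions came from GENCODE lifted to GRCh37, and promoters from RefSeq.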

Additional observations from a re-analysis of the deposited data

How the results depend on the processing

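With edgeR no gene passed the call rule, while DESeq2 on the same genes called 1800 genes and 7 of the members, all lower, and 2, 1 and 4 genes of the isoprenoid, other fatty acid and sterol transport lists. At an unadjusted p, DESeq2 placed 2 members higher. The cause of the gap between tools was not tested. With a filter of at least 1 count in total, 9 genes were called, and with the highest transcript only, 1. The members lower at an unadjusted p under 0.05 numbered 7 to 13 when each library was left out, with 7 without OE replicate 2, and those higher 0 to 3, with 3 without vector control replicate 1. Their median ran from −0.43 to −0.34, and was −0.32 with the highest transcript only. By segment, as each library was left out, the median ran from −0.41 to −0.18 for mevalonate, −0.65 to −0.38 for squalene to cholesterol and −0.29 to −0.20 for SREBP control. It ran from −0.032 to −0.013 for fatty acids and from −0.78 to −0.57 for acetyl-CoA supply. With all 4 libraries the median of the 3 acetyl-CoA supply genes was −0.52, outside that range. In comparisons chosen after seeing the data, 8 members were lower when the leading transcript was the same, with a median of −0.24, and the median was −0.27 when replicates lay within 2-fold. With the highest transcript only, *FADS2* was at 0.30, *SREBF1* at −0.33, *FDFT1* at −0.03 and *LSS* at −5.23, while *DHCR7* had 0 counts in OE on that transcript, so its fitted −13.38 is no bound. As each library was left out, *SREBF1* ran from −0.011 to 0.25 and *HMGCS1* from −0.21 to 0.0078, the sign changing in both without vector control replicate 1. Of 221 values of named genes under alternatives, 210 kept direction and side of the threshold, 4 changed sign, and 7 moved past the threshold, all in DESeq2. The main fit placed no gene past the threshold, so keeping its side does not show how well a difference held. Same-numbered replicates did not deviate together over all genes tested (correlation −0.02). That value cannot exclude a pairing that acts on some of the genes. With the replicate number as a block, 11 members were lower, 0 higher and 0 called, with a median of −0.38. With 2 libraries a group, differences smaller than the replicate spread were not detectable.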
